A study of Homo sapiens with 6 samples.

Results

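The integrated stress response and the unfolded protein response are examined here through 38 genes chosen by name, of the 67060 genes in the count table. The names cover the eIF2α kinases and phosphatase subunits, the transcription factors of the ATF4 branch with their target genes, and the sensors and target genes of the XBP1 and ATF6 branches. No measured value entered the choice, but earlier results of these data were known when it was made. Of the 38 genes, 35 had enough counts to be among the 24500 genes tested. The other 3, *SESN2*, *HYOU1* and *CANX*, are described with their groups.

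SH-SY5Y, a cell line from a human neuroblastoma, was infected with an adenovirus that carries mouse *Esrrg* with a Flag tag behind the CMV promoter (ERRG), or with the same kind of virus carrying GFP (GFP), at 0.5 ul of virus, and RNA was taken after 24 h. *Esrrg* encodes the nuclear receptor ERRγ, and the comparison asks which genes change when it is supplied in excess. There are 3 libraries per group, numbered 1, 3 and 4 for GFP and 2, 3 and 4 for ERRG in the labels. Both groups carry a virus, no uninfected cells are included here, and the receptor is a mouse protein made from a strong viral promoter in a single tumour line. The labels call the cells neuronal progenitors. They do not say whether the libraries came from separate cultures, so p-values measure only the spread between these libraries, which may be technical.

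In the integrated stress response, any of 4 kinases phosphorylates the translation factor eIF2, which lowers general protein synthesis while the mRNA of the transcription factor ATF4 is translated more. ATF4 then raises genes for amino acid synthesis, amino acid uptake and stress effectors, and phosphatase complexes later remove the phosphate. The unfolded protein response starts in the endoplasmic reticulum (ER) from the sensors PERK, IRE1 and ATF6. PERK is itself an eIF2 kinase, IRE1 splices the *XBP1* mRNA, and ATF6 and spliced XBP1 raise ER chaperones and components of ER-associated degradation. Counts of mRNA do not show phosphorylation, translation, splicing of XBP1 or cleavage of ATF6.

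Most listed genes of the ATF4 branch and most listed ER targets that were tested were called higher in ERRG. The eIF2α kinases, *ERN1* and *ATF6* upstream of them were not called. A gene was called when the Benjamini-Hochberg adjusted p of edgeR's quasi-likelihood test over all 24500 genes was below 0.05 and the fold change was at least 1.5. Of the 35 genes tested, 22 were called higher and 1 was called lower, against 17.3% of all genes tested called higher and 16.8% called lower. All 38 genes are protein-coding, and among protein-coding genes tested the shares were 25.9% and 12.4%. The median log2 fold change was 0.78 over the 35 genes, -0.10 over all genes tested and 0.12 over protein-coding genes tested. The ranges of the normalised counts per 1000000 reads (CPM) of both groups did not overlap for 24 genes with ERRG higher and for 3 with ERRG lower. Over all genes tested the ranges did not overlap for 58.1%, 27.8% with ERRG higher and 30.3% with ERRG lower. Of the 13746 protein-coding genes tested, 5753 had no overlap with ERRG higher and 3906 with ERRG lower. The 19 tested genes of the ATF4 branch had 15 called higher and none called lower, with a median of 1.22. The 10 tested genes of the XBP1 and ATF6 branches had 7 called higher and 1 called lower, with a median of 0.87. Among the 4 kinases and the 2 phosphatase subunits none was called, and the medians were -0.16 and 0.44. Together, the 38 genes took 0.279 to 0.304% of the reads counted on genes in the GFP libraries and 0.386 to 0.421% in the ERRG libraries.

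**Figure D1:**
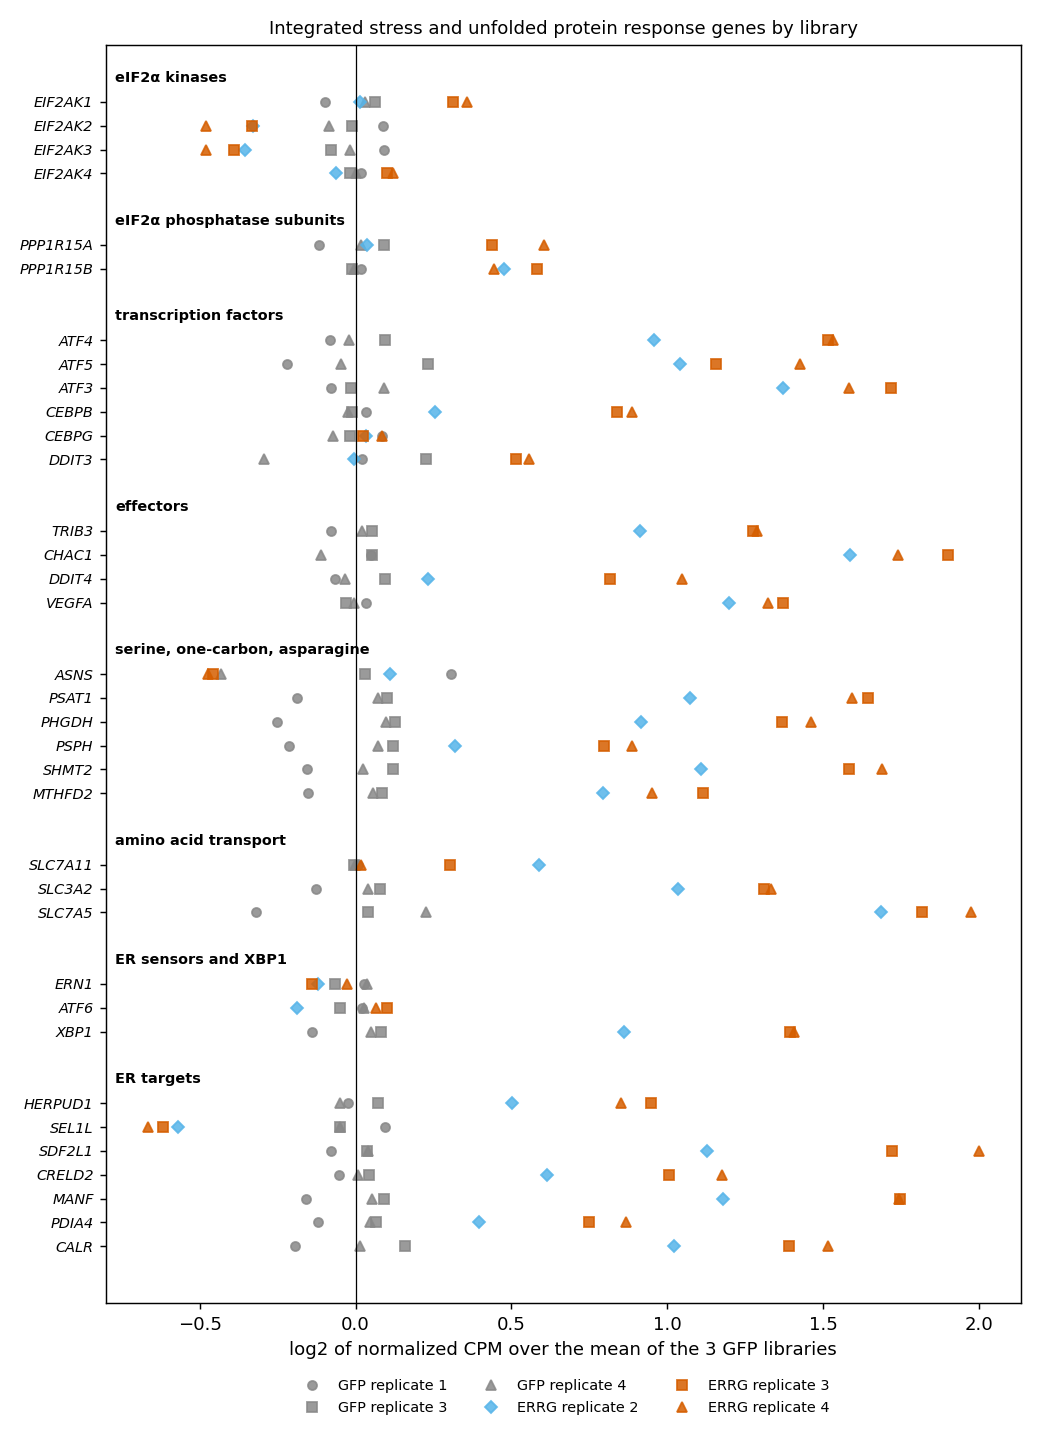
Normalised CPM of the 35 tested genes in each library, as the log2 ratio to the mean of the 3 GFP libraries, grouped by role. Grey symbols are GFP, the blue diamond is ERRG replicate 2, and orange symbols are ERRG replicates 3 and 4. The ERRG libraries lie to the right of the GFP libraries for most ATF4 branch genes and ER targets, and replicate 2 lies between GFP and the other ERRG libraries for all 22 genes called higher.

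The libraries held 24969759 to 40859666 reads counted on genes. *ESRRG*, to which reads from the mouse construct may align, had 83.6, 90.4 and 86.9 CPM in GFP and 570, 772 and 778 CPM in ERRG, so the labels fit the gene supplied (log2 fold change 3.02 ± 0.14, SE, n = 3 per group). Reads that the counter assigned to no feature (no-feature reads) were 51.3 to 52.2% of all reads in GFP. In ERRG replicates 2, 3 and 4 they were 46.6%, 31.6% and 29.5%. Whether such reads lay between genes or in introns cannot be told from the counts. Replicate 2 lay between the GFP libraries and the other ERRG libraries in CPM for 22 of the 22 genes called higher, and for 87.8% of all genes called higher. The share of no-feature reads separates the groups, and within a group it varies mostly between ERRG replicate 2 and the other ERRG libraries. As a covariate it is thus partly confounded with the group, and its slope leans on replicate 2. With the share of no-feature reads as a covariate, 17 of the 35 genes were called higher, against 7.24% of all genes tested. Against ERRG replicate 2 alone the number was 18 (9.6% of all genes), and without that library it was 25 (22.9%). With a single ERRG library only the GFP libraries supply the spread, and the lone library is assumed to vary like them, so calls against replicate 2 alone rest on that assumption. Scaled by library size alone, the median of all genes moved to -0.42 and the share of higher among all calls from 50.7% to 22.5%, and 17 of the genes were called higher. The labels give no batch.

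Of the 8 markers of noradrenergic neuroblastoma, the state for which the line is known, 7 were tested, of which *PHOX2A* was called higher and *DBH* and *GATA2* lower. *TH* had 0 counts in every library. Widely used genes (*HYOU1* and *CANX*, below) were at or near 0 as well, so no level is read for *TH*. The summed level of the 8 markers was 698 to 760 CPM in GFP and 522 to 692 CPM in ERRG. For 8 markers of the mesenchymal state the sums were 3479 to 3513 CPM and 4219 to 4346 CPM, with *COL1A2* and *YAP1* called lower and none higher. Most of the rise in that sum came from *FN1*, fibronectin, at a mean of 1956 CPM in GFP and 2691 CPM in ERRG, which was not called, and 4 of the 8 markers had a positive and 4 a negative log2 fold change (median -0.057). The part of these shifts in the results was not tested, and in bulk RNA a change in the number of cells of one state cannot be told apart from a change in RNA per cell.

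The 4 kinases that phosphorylate eIF2α differed little between groups. *EIF2AK3* encodes PERK, the kinase that responds to unfolded protein in the ER. It had 28.3, 25.2 and 26.3 CPM in GFP and 20.8, 20.3 and 19.05 CPM in ERRG, so that every ERRG library lay below every GFP library, by less than 1.5-fold (log2 fold change -0.41 ± 0.10, edgeR adjusted p = 0.00574). *EIF2AK2*, the kinase PKR that binds double-stranded RNA, had 172, 161 and 153 CPM in GFP and 129, 128 and 116 CPM in ERRG (-0.38 ± 0.10, edgeR adjusted p = 0.00806). The groups did not overlap for these 2 kinases, and the difference was not called for either. With library size as the only scaling both were called lower (-0.73 and -0.69), and with a correction for GC content and length both moved towards 0, to -0.095 and -0.073 on the log2 scale. *EIF2AK1*, the heme-regulated kinase HRI, had 190, 213 and 208 CPM in GFP and 206, 253 and 261 CPM in ERRG (0.24 ± 0.11, edgeR adjusted p = 0.112). *EIF2AK4* encodes GCN2, which senses uncharged tRNA, and ranged from 148 to 152 CPM in GFP and from 144 to 163 CPM in ERRG. The groups overlapped for both *EIF2AK1* and *EIF2AK4*.

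The phosphatase subunits that bring PP1 to eIF2α were not called. *PPP1R15B*, the constitutive subunit CReP, had 100.2, 98.1 and 98.5 CPM in GFP and 138, 148 and 135 CPM in ERRG, which lay higher with no overlap but below 1.5-fold (0.50 ± 0.09, edgeR adjusted p = 0.00107). It was called higher with the GC and length correction (0.66), with that correction and the replicate block together (0.69), and without ERRG replicate 2 (0.62). *PPP1R15A* encodes GADD34, the inducible subunit and an ATF4 branch target. Its CPM were 24.4, 28.1 and 26.8 in GFP and 27.1, 35.8 and 40.1 in ERRG, where replicate 2 lay within the GFP range (0.38 ± 0.14, edgeR adjusted p = 0.043).

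ATF4 and its partner C/EBP proteins bind a composite element called CARE. The 8 letters TGATGNAA were searched on both strands from 250 bases before to 50 bases after each gene start, in RefSeq promoter windows on GRCh38.p14. Such windows were at hand for 33 of the 38 genes and 27305 genes in all, and the motif was present for 1217 (4.46%) of all genes. It was present for 5 of the 16 ATF4 branch genes with a window, *ASNS*, *ATF3*, *CEBPG*, *CHAC1* and *SLC3A2*, and also for *HERPUD1* and *PPP1R15B*. Several of these genes are textbook cases in which the element was described, and a match of letters is not evidence of binding. The windows of the ATF4 branch matches that lie before the start are printed 5′ to 3′ on the gene's strand, with the element in capitals, because these 4 genes behaved differently from each other in the counts.
ATF3: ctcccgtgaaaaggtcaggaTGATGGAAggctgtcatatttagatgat
CHAC1: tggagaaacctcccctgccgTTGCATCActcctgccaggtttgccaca
CEBPG: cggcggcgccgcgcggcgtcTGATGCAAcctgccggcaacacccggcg
ASNS: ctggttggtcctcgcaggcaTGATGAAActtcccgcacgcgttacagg
The windows are chr1:212565196-212565243 (plus strand) for *ATF3*, chr15:40953242-40953289 (plus strand) for *CHAC1*, chr19:33374051-33374098 (plus strand) for *CEBPG* and chr7:97872449-97872496 (minus strand) for *ASNS*. The element starts 191, 209, 42 and 68 bases before the RefSeq start of its window, and in *CHAC1* it reads on the opposite strand. In the GENCODE annotation *CHAC1*, *CEBPG* and *ASNS* start farther upstream, so there the element lies inside the gene. Of these 4 genes, *ATF3* and *CHAC1* were called higher and *CEBPG* and *ASNS* were not called.

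Of the 6 transcription factors, 4 were called higher. *ATF4*, the factor on which the branch centres, had 67.9, 76.7 and 70.8 CPM in GFP and 139, 205 and 208 CPM in ERRG. Every ERRG library lay above every GFP library, replicate 2 least so (log2 fold change 1.36 ± 0.15, edgeR adjusted p = 8.31e-05). *ATF3*, a stress-induced factor downstream of ATF4, rose from 2.87, 3.01 and 3.23 CPM to 7.86, 9.98 and 9.10 CPM (1.56 ± 0.15, edgeR adjusted p = 4.39e-05). *ATF5*, a relative of ATF4 linked to the mitochondrial stress response, had 6.35, 8.70 and 7.16 CPM in GFP and 15.2, 16.5 and 19.9 CPM in ERRG (1.22 ± 0.15, edgeR adjusted p = 0.000148). *NUP62* shares 19.5% of the exon bases of *ATF5* on the other strand. These 3 factors stayed called under each of the 18 alternatives that keep the 1.5-fold cutoff.

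*CEBPB*, a bZIP factor that pairs with ATF4, was called higher at 4.40, 4.27 and 4.23 CPM in GFP against 5.12, 7.69 and 7.95 CPM in ERRG (0.69 ± 0.18, edgeR adjusted p = 0.00925). The rise lay mostly in ERRG replicates 3 and 4, and the call was lost, among other alternatives, with the no-feature covariate (0.068 on the log2 scale), with the GC and length correction (0.28) and against replicate 2 alone (0.26). *CEBPG*, the other C/EBP partner listed, had 18.7, 17.5 and 16.8 CPM in GFP and 18.1, 17.9 and 18.7 CPM in ERRG, with overlapping groups (0.048 ± 0.097). *DDIT3* encodes CHOP, the factor associated with cell death under lasting ER stress. It had 2.55, 2.94 and 2.05 CPM in GFP and 2.51, 3.59 and 3.70 CPM in ERRG, was not called (0.38 ± 0.22, edgeR adjusted p = 0.165), and overlapped between groups through ERRG replicate 2. Its counts were 67 to 126 per library, and 27.2% of its exon bases lie opposite exons of *MARS1*, an aminoacyl-tRNA synthetase with 2209 to 2890 counts in GFP and 4889 to 9158 in ERRG. Whether strand was used in counting is not given in the sources used here.

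The 4 effectors that were tested were all called higher. *CHAC1*, an enzyme that degrades glutathione, had 20, 22 and 21 counts in GFP and 55, 86 and 78 in ERRG, or 0.709, 0.711 and 0.634 CPM against 2.06, 2.55 and 2.29 CPM (1.75 ± 0.22, edgeR adjusted p = 0.000174). *TRIB3*, a pseudokinase that restrains AKT and ATF4, rose from 10.5, 11.4 and 11.2 CPM to 20.8, 26.7 and 27.0 CPM (1.17 ± 0.12, edgeR adjusted p = 7.04e-05). *VEGFA*, the angiogenic growth factor, rose from 15.6, 14.9 and 15.2 CPM to 34.9, 39.3 and 38.04 CPM (1.30 ± 0.10, edgeR adjusted p = 9.71e-06). For these 3 genes each ERRG library lay well above GFP, replicate 2 included. *DDIT4* (REDD1), an inhibitor of mTORC1, had 4.04, 4.53 and 4.14 CPM in GFP and 4.98, 7.46 and 8.75 CPM in ERRG (0.74 ± 0.20, edgeR adjusted p = 0.011). Its rise lay in replicates 3 and 4. The log2 fold change was -0.015 with the no-feature covariate and 0.24 against replicate 2 alone, and the call was lost in both. Without ERRG replicate 4 it was not called either. *SESN2*, a leucine sensor that restrains mTORC1, had 0 counts in every library, where a count of 0 allows up to 3, and no level can be read.

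Of the enzymes that make serine, one-carbon units and asparagine, 5 of 6 were called higher. The serine pathway runs through *PHGDH*, *PSAT1* and *PSPH* in that order, and its first enzyme *PHGDH* rose from 29.9, 38.9 and 38.1 CPM to 67.2, 91.9 and 98.0 CPM (1.27 ± 0.15, edgeR adjusted p = 0.000135). *PSAT1*, the transaminase, rose from 23.2, 28.3 and 27.8 CPM to 55.7, 82.6 and 79.7 CPM (1.46 ± 0.15, edgeR adjusted p = 6.68e-05). *PSPH*, the phosphatase that ends the pathway, had 22.8, 28.8 and 27.9 CPM in GFP and 33.0, 46.0 and 49.0 CPM in ERRG (0.69 ± 0.15, edgeR adjusted p = 0.00369). All 3 lay higher in every ERRG library, but the value for *PSPH* was 0.13 with the no-feature covariate and 0.32 against replicate 2 alone, and its call was lost in both. The mitochondrial one-carbon enzymes were higher too. *SHMT2*, which splits serine to glycine and a one-carbon unit, rose from 37.6, 45.5 and 42.6 CPM to 90.2, 126 and 135 CPM (1.48 ± 0.15, edgeR adjusted p = 5.5e-05). *MTHFD2*, the next enzyme, rose from 24.5, 28.8 and 28.3 CPM to 47.1, 58.8 and 52.6 CPM (0.96 ± 0.11, edgeR adjusted p = 0.000117).

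*ASNS*, asparagine synthetase, is a classic target of ATF4, and it was not higher. Its counts were 64, 58 and 45 in GFP and 53, 45 and 45 in ERRG, or 2.27, 1.88 and 1.36 CPM against 1.98, 1.34 and 1.32 CPM, with overlapping groups (-0.25 ± 0.26, edgeR adjusted p = 0.448). The annotation places a long noncoding RNA, ENSG00000284707, over 49.3% of the exon bases of *ASNS* on the same strand, and reads on bases of both genes are commonly set aside as ambiguous. That RNA had 110 to 114 counts in GFP and 51 to 78 in ERRG, and ambiguous reads were 4.55 to 4.87% of all reads in GFP and 5.69 to 9.84% in ERRG. The level of *ASNS* is therefore uncertain, and the part of this overlap in the counts was not tested.

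Both chains of the large neutral amino acid transporter were called higher. *SLC7A5* (LAT1), the light chain that carries leucine and other essential amino acids, had 8.51, 10.9 and 12.4 CPM in GFP and 34.2, 37.4 and 41.7 CPM in ERRG. At 3.55-fold it had the highest fold change of the 35 genes tested in this fit, and the groups were far apart (log2 fold change 1.83 ± 0.14, edgeR adjusted p = 1.36e-05). That order depended on the fit, since with the GC and length correction its value was 1.38, below *PSAT1* (1.65) and others, and with the replicate block it was 1.76, below *CHAC1* (1.84) and *SDF2L1* (1.82). *SLC3A2*, the heavy chain 4F2hc shared by several transporters, rose from 30.8, 35.5 and 34.5 CPM to 68.8, 83.3 and 84.6 CPM (1.23 ± 0.11, edgeR adjusted p = 3.06e-05). *SLC7A11*, the cystine and glutamate exchanger xCT that also pairs with *SLC3A2*, had 44.2, 43.8 and 43.9 CPM in GFP and 66.0, 54.2 and 44.5 CPM in ERRG. It was not called (0.32 ± 0.13, edgeR adjusted p = 0.0661), and here ERRG replicate 2 was the highest library and replicate 4 lay next to GFP. It was called higher with the no-feature covariate (0.74), with the GC and length correction (0.63) and against replicate 2 alone (0.59).

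The ER sensor genes *ERN1* and *ATF6* did not differ beyond the spread, while *XBP1*, whose mRNA IRE1 splices, was called higher. *ERN1*, which encodes IRE1α, had 25.3, 23.7 and 25.4 CPM in GFP and 22.8, 22.5 and 24.3 CPM in ERRG (-0.094 ± 0.093, edgeR adjusted p = 0.425). *ATF6*, the membrane-bound factor released by cleavage, had 87.5, 83.2 and 87.9 CPM in GFP and 75.6, 92.6 and 90.3 CPM in ERRG (-0.0005 ± 0.10, edgeR adjusted p = 0.997). ERRG overlapped GFP in both. *XBP1* had 40.2, 46.9 and 45.8 CPM in GFP and 80.6, 117 and 117 CPM in ERRG, with every ERRG library above GFP (1.24 ± 0.14, edgeR adjusted p = 0.000114). The counts do not separate the spliced from the unspliced form.

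The ER stress element ERSE, bound by ATF6 and XBP1, is CCAAT, 9 further bases and CCACG. In the same windows it was present for 25 (0.0916%) of all genes and for 4 of the 12 genes of the XBP1 and ATF6 branches, *CALR*, *CANX*, *CRELD2* and *XBP1*. Its compact form ERSE-II, ATTGG, 1 base and CCACG, was present for 19 (0.0696%) of all genes and for 3 of the 12, *HERPUD1*, *HYOU1* and *SDF2L1*. None of the 16 ATF4 branch genes with a window held either. The 8 letters TGACGTGG, called UPRE, were present for 0.927% of all genes and for *HYOU1*, where they overlap its ERSE-II. A form of the estrogen-related receptor element, TNAAGGTCA, was present for 319 (1.17%) of all genes and for none of the 33 genes with a window, which says only that these letters are not in these windows. The windows of the ER genes called higher are printed in the same way, since they share the element and differ in the bases around it.
XBP1: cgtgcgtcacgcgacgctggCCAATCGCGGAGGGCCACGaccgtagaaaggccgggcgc
CALR: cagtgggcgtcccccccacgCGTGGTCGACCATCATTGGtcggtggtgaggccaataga
CRELD2: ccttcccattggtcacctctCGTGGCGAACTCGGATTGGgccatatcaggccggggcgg
HERPUD1: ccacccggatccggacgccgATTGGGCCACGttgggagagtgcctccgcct
SDF2L1: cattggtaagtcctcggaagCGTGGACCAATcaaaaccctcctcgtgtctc
Capitals mark ERSE in the first 3 and ERSE-II in the others, and in *CALR*, *CRELD2* and *SDF2L1* the element reads on the opposite strand. The windows are chr22:28800583-28800641 (minus strand) for *XBP1*, chr19:12938364-12938422 (plus strand) for *CALR*, chr22:49918534-49918592 (plus strand) for *CRELD2*, chr16:56932005-56932055 (plus strand) for *HERPUD1* and chr22:21642094-21642144 (plus strand) for *SDF2L1*. These 5 genes were printed because they were called higher, so their calls say nothing about the element. *CANX* and *HYOU1*, which also hold a form of it, had too few counts to be tested. As with CARE, a match of letters is not evidence of binding. *MANF* and *PDIA4* were called higher as well, with neither form in the windows searched.

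Of the 7 ER targets tested, 6 were called higher and 1 lower. *SDF2L1*, a partner of ER chaperones, rose from 5.25, 5.69 and 5.71 CPM to 12.1, 18.3 and 22.2 CPM (1.66 ± 0.20, edgeR adjusted p = 0.000124). *MANF*, a secreted ER protein with neurotrophic activity, rose from 41.7, 49.5 and 48.2 CPM to 105, 156 and 156 CPM (1.58 ± 0.15, edgeR adjusted p = 4.57e-05). *CALR*, the calcium-binding lectin chaperone calreticulin, rose from 523, 667 and 604 CPM to 1214, 1568 and 1709 CPM (1.32 ± 0.15, edgeR adjusted p = 0.000111). In all 3 the groups were far apart, with replicate 2 the lowest of the ERRG libraries.

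*CRELD2*, another ER-resident protein, rose from 28.4, 30.4 and 29.6 CPM to 45.1, 59.1 and 66.5 CPM (0.95 ± 0.13, edgeR adjusted p = 0.000302). *HERPUD1*, an adaptor of ER-associated degradation, rose from 24.0, 25.6 and 23.6 CPM to 34.5, 47.1 and 44.02 CPM (0.78 ± 0.12, edgeR adjusted p = 0.000526). *PDIA4*, a protein disulfide isomerase, had 543, 617 and 609 CPM in GFP and 777, 991 and 1076 CPM in ERRG (0.69 ± 0.14, edgeR adjusted p = 0.00224). The groups did not overlap for any of these 3, but with the no-feature covariate the values were 0.45, 0.39 and 0.25 and none was called. Against replicate 2 alone the values were 0.62, 0.51 and 0.40, of which that for *CRELD2* passed the limits.

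*SEL1L*, the scaffold of the HRD1 ubiquitin ligase in ER-associated degradation, went the other way. It had 130, 117 and 117 CPM in GFP and 82.0, 79.2 and 76.6 CPM in ERRG, a tight fall with no overlap and little gap between replicate 2 and the other ERRG libraries (-0.62 ± 0.09, edgeR adjusted p = 0.000389). The fall was 1.53-fold, close to the 1.5-fold limit, and the call was lost under 10 of the same 18 alternatives and with a 2-fold cutoff, with values from -0.93 to -0.27 on the log2 scale. *HYOU1*, an ER chaperone, had 0 counts in GFP and 0, 1 and 1 in ERRG, and *CANX*, the membrane-bound lectin chaperone calnexin, had 0 to 2 counts in every library. Both are used by nearly every cell, so they are listed at or near 0 and no level or fold is read from them. Of the 31-base words of their transcripts, 0% for *HYOU1* and 3.13% for *CANX* were found in the alternate contigs of GRCh38. The *CANX* words found were spread over 245 of the 261 contigs searched, and the reason for the low counts was not tested.

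**Figure D2:**
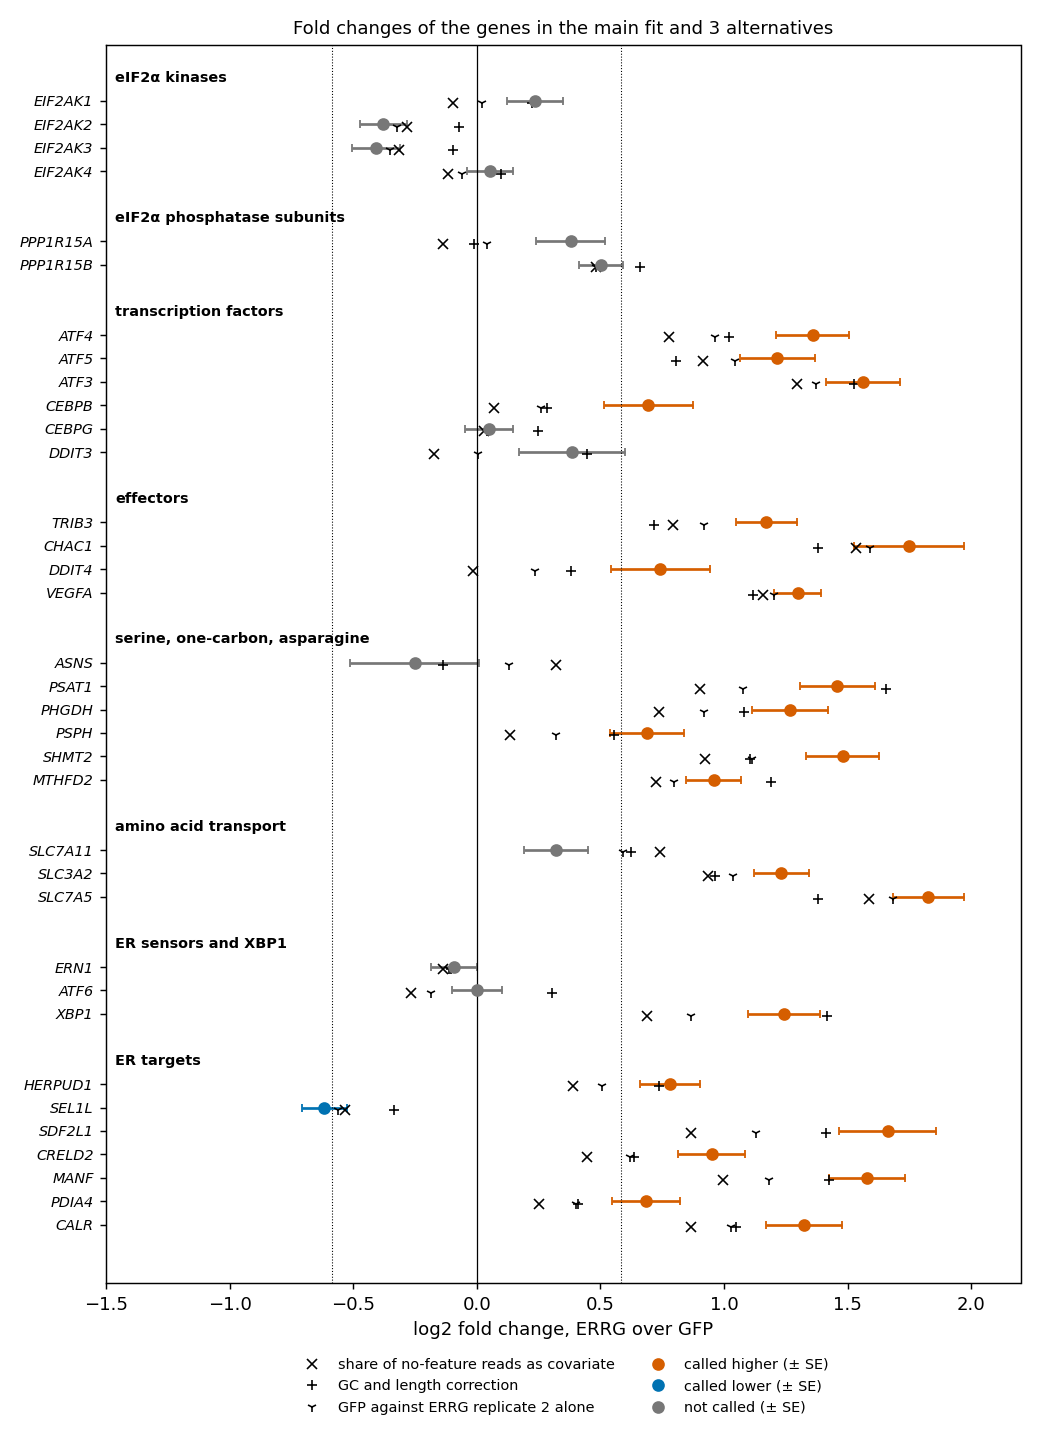
Log2 fold change (ERRG over GFP) of the 35 tested genes with its standard error, coloured by call, beside 3 alternatives (black symbols). Dotted lines mark 1.5-fold. Of the coloured points, SLC7A5, CHAC1 and SDF2L1 lie farthest to the right and SEL1L farthest to the left, and the black symbols for CEBPB, DDIT4, PSPH and PDIA4 fall inside the dotted lines.

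Of the 23 genes called, 16 kept the call and direction under the 18 alternatives that keep the 1.5-fold cutoff, and 7 lost it under 1 or more. The 16 were *ATF3*, *ATF4*, *ATF5*, *CHAC1*, *TRIB3*, *VEGFA*, *PHGDH*, *PSAT1*, *SHMT2*, *MTHFD2*, *SLC3A2*, *SLC7A5*, *XBP1*, *SDF2L1*, *MANF* and *CALR*. With a 2-fold cutoff *MTHFD2*, at 1.94-fold, was no longer called, and the other 15 were. The 7 were *CEBPB*, *DDIT4*, *PSPH*, *CRELD2*, *HERPUD1*, *PDIA4* and *SEL1L*. Of the 12 genes tested and not called, *DDIT3*, *PPP1R15A* and *PPP1R15B* were called higher when ERRG replicate 2 was left out. When the GC and length correction was combined with the replicate block, *DDIT3* (0.65) was called higher as well, as was *PPP1R15B*, and *SLC7A11* was called under 3 alternatives. The median of the ATF4 branch stayed between 0.78 and 1.40 and that of the XBP1 and ATF6 branches between 0.42 and 1.10. The median of the kinases was 0.012 with the GC and length correction, against -0.16 without it.

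Per length, the ER chaperones stood highest in the GFP libraries, at 762 ± 68.9 transcripts per 1000000 (TPM, SD, n = 3) for *CALR* and 639 ± 20.8 for *PDIA4*. *EIF2AK1* followed at 133 ± 3.20 TPM and *ATF4* at 98.3 ± 4.30 TPM, ahead of *MANF* (77.7 ± 4.28 TPM). *EIF2AK2* and *XBP1*, at 52.6 ± 5.18 and 52.3 ± 2.38 TPM, did not differ beyond their spread. At the low end *ATF3* had 2.72 ± 0.095 TPM, and *ASNS* (1.35 ± 0.38 TPM) and *CHAC1* (1.20 ± 0.11 TPM) did not differ beyond their spread. The levels used exon lengths of all annotated exons and serve only for the order within GFP. The genes called higher thus ran from the lowest levels among those tested (*CHAC1*) to the highest (*CALR*).

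A further 71 genes of the same pathways were read from a list chosen with earlier results known. Of these, 67 were tested, 29 were called higher and 4 lower, with a median log2 fold change of 0.48. The background is as for the listed genes, 17.3% higher and 16.8% lower among all genes tested and 25.9% and 12.4% among protein-coding genes. In the ATF4 branch 13 of 21 were called higher and 2 lower (median 0.75). *GDF15*, a stress-induced secreted factor, rose from 10.4, 12.1 and 9.52 CPM to 52.8, 74.4 and 82.1 CPM, more than any of the 35 genes (2.71 ± 0.17, edgeR adjusted p = 3.5e-06). *STC2*, a secreted glycoprotein, rose from 1.24, 1.42 and 1.69 CPM to 4.19, 5.41 and 5.22 CPM (1.76 ± 0.20), and *EIF4EBP1*, an inhibitor of cap-dependent translation, from 20.1, 26.9 and 23.8 CPM to 52.4, 86.1 and 88.0 CPM (1.68 ± 0.19). *KLHL24*, an adaptor of a ubiquitin ligase, fell from 68.6, 58.1 and 61.7 CPM to 29.1, 24.2 and 27.5 CPM (-1.22 ± 0.11), and *JDP2*, a repressor of the AP-1 family, from 9.68, 8.89 and 8.55 CPM to 5.27, 5.82 and 5.52 CPM (-0.70 ± 0.13). The groups did not overlap for any of these 5 genes.

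Of 14 genes of the eIF2 machinery and its relays, 6 were called higher and none lower (median 0.40), beside the 25.9% of protein-coding genes tested that were called higher. The 6 were the 5 subunits of eIF2B, the exchange factor that phosphorylated eIF2 inhibits, and *GCN1*, the ribosome-bound activator of GCN2. *EIF2B5* rose from 48.1, 52.2 and 46.8 CPM to 87.3, 116 and 121 CPM (1.15 ± 0.13, edgeR adjusted p = 9.26e-05). *GCN1* rose from 257, 283 and 272 CPM to 442, 511 and 557 CPM (0.89 ± 0.11), and *EIF2B1* from 54.1, 56.1 and 54.0 CPM to 74.0, 100.7 and 105 CPM (0.77 ± 0.13). In each of them replicate 2 was the lowest ERRG library and lay above GFP.

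Of 32 further genes of the XBP1 and ATF6 branches tested, 10 were called higher and 2 lower (median 0.46). The other 20 were not called, among them the chaperones *HSP90B1* (0.44) and *DNAJB11* (0.54) and the disulfide isomerases *PDIA3* (0.45) and *PDIA6* (0.52). The share called higher is near the 25.9% of protein-coding genes, and nothing is read from it about the list. *HSPA5* encodes BiP, the chaperone that holds the ER sensors inactive, and rose from 387, 429 and 394 CPM to 708, 911 and 892 CPM (1.05 ± 0.13, edgeR adjusted p = 0.000127). The ER-anchored factors *CREB3L1* and *CREB3* rose from 22.7, 23.1 and 22.6 CPM to 64.3, 75.4 and 84.6 CPM (1.71 ± 0.11) and from 28.9, 33.0 and 34.7 CPM to 51.3, 83.6 and 84.1 CPM (1.18 ± 0.17). *ERO1B*, an ER oxidoreductase, fell from 10.9, 10.7 and 9.46 CPM to 4.71, 5.05 and 5.08 CPM (-1.06 ± 0.13), and *EDEM3*, which trims mannose on misfolded glycoproteins, from 283, 243 and 243 CPM to 167, 134 and 126 CPM (-0.84 ± 0.13). Genes of ER-associated degradation were called in both directions, with *SYVN1* (0.71) and *EDEM2* (0.90) higher and *EDEM3* lower. Among the listed ER targets *HERPUD1* was called higher and *SEL1L* lower. The chaperone genes *DNAJC10* (-0.32) and *HSPA13* (-0.22) lay lower but were not called.

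**Figure D3:**
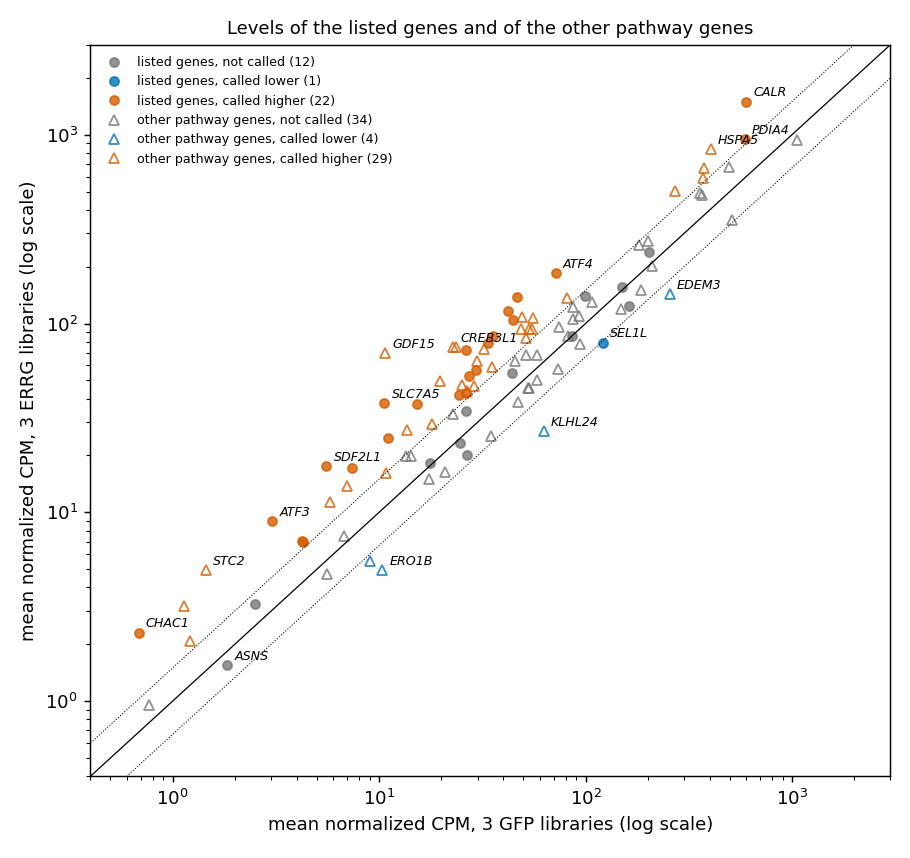
Mean normalised CPM in ERRG against GFP (log axes, 3 libraries each) for the 35 tested genes (filled circles) and 67 other pathway genes (open triangles), coloured by call, with the number in each class in the key. The solid line is equality and the dotted lines 1.5-fold. Genes called higher span the range from CHAC1 to CALR, and GDF15 lies farthest above the line.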

How the data were processed

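RNA of SH-SY5Y cells was sequenced after removal of ribosomal RNA with a directional kit. Per the labels and the submitters' processing notes, the authors trimmed reads with Trim Galore 0.6.7, aligned them to GRCh38 with STAR 2.7.9a and counted them with HTSeq 0.11.3, and the deposited values are raw counts per gene. The annotation release and the strand setting of the counting are not given in the sources used here. Groups and replicate numbers came from the labels. Summary entries of the counter were kept out of library sizes and tests. No-feature, ambiguous and multiply aligned reads were 29.5 to 52.2%, 4.55 to 9.84% and 7.16 to 13.0% of all reads.

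Identifiers were matched to GENCODE release 44 for symbols, types, lengths and overlaps. Genes passed filterByExpr, were scaled by TMM and were compared in edgeR 4.0.16 (R 4.3.3) with the quasi-likelihood test across 24500 genes, 3 GFP against 3 ERRG libraries. A gene was called at a p below 0.05 after Benjamini-Hochberg adjustment together with at least a 1.5-fold difference. The paper gives these cutoffs for its sequencing of mouse dopaminergic neurons, and its text states none for the SH-SY5Y data. Standard errors were obtained by dividing the size of the log2 fold change by the root of the F statistic. A prior count of 2 was used only for log CPM, in the GC and length curves and the correlations between libraries. An exact permutation test of 3 against 3 libraries cannot give a two-sided p below 0.1 and was not used. Named genes are all 38 listed genes, *ESRRG* and, of 71 other pathway genes, the 3 called higher and the 3 called lower with the largest change in each branch. Genes called in small counts, overlapping genes, markers and some ER chaperone and degradation genes that limit a statement are named besides. The 38 genes and the lists were chosen with earlier results of these data known.

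Alternatives were DESeq2 1.42.0, RLE size factors, library size only, other filters and fold cutoffs, testing against 1.5-fold, only protein-coding genes, a replicate block, smooth curves over GC content and length (mgcv 1.9.3), the share of no-feature reads as a covariate, each library left out and ERRG replicate 2 alone, where the lone library is assumed to vary like the GFP libraries. The edgeR and DESeq2 fits and the fit with the GC and length correction were tested on simulated counts. These gave every library the same spread, with none set apart as ERRG replicate 2 is. That test therefore does not address such differences between libraries. Limits from counts of 0 cover counting error only. Promoter windows came from RefSeq on GRCh38.p14. Tables and plots were made in Python 3.11.15 with matplotlib 3.10.9.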

Additional observations from a re-analysis of the deposited data

Results flagged for a closer look

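Reads outside the gene counts were more frequent in each ERRG library than in any GFP library for 2 of the summary entries. Ambiguous reads, which fall on overlapping genes and are counted for neither, made up 5.69%, 9.84% and 9.79% of all reads in ERRG replicates 2, 3 and 4, against at most 4.87% in GFP. Reads aligned to several places made up 9.33%, 12.7% and 13.0%, against at most 7.41% in GFP. Of the 38 listed genes, *ASNS* had the largest share of exon bases lying under another gene on the same strand (49.3%). Groups of 3 libraries are too small for the gap test of outlying samples. Pairwise comparison of counts nevertheless set ERRG replicate 2 apart, with a chi-square per gene of 54.6 and 58.0 against replicates 3 and 4, while these differed from each other by 6.06 and the GFP libraries by 3.25 to 7.91.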

How the results depend on the processing

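The number of listed genes called higher was 22 and ranged from 15 (2-fold cutoff) to 25 (without ERRG replicate 2), within 1.5 times throughout. The single gene called lower, *SEL1L*, was lost with DESeq2, RLE size factors, the 2-fold cutoff, the test against a 1.5-fold threshold, the GC and length correction alone or with the block, the no-feature covariate and ERRG replicate 2 alone (0 genes each). With library size only and with no fold cutoff 3 genes were called lower, and leaving out 1 library gave 0 to 1 (0 without GFP replicate 1, ERRG replicate 2 or ERRG replicate 4). Over all genes, 4234 were called higher and 4117 lower, against 2200 and 7566 with library size only, 1952 and 1982 with the 2-fold cutoff, 2207 and 1387 with the threshold test, 2814 and 2468 with protein-coding genes only, 1773 and 1323 with the covariate, and 2555 and 2031 with ERRG replicate 2 alone.

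Among 630 comparisons of single genes with an alternative (35 genes, 18 alternatives, the fold cutoffs not among them), 554 kept direction and call, 41 lost a call, 11 gained one and 24 changed sign. The sign changed with library size only for *EIF2AK1* (-0.094), *EIF2AK4* (-0.27) and *CEBPG* (-0.27), and with protein-coding genes only for *EIF2AK4* (-0.083) and *CEBPG* (-0.089). With the covariate it changed for *EIF2AK1* (-0.095), *EIF2AK4* (-0.12), *PPP1R15A* (-0.14), *DDIT3* (-0.17), *DDIT4* (-0.015) and *ASNS* (0.32). With ERRG replicate 2 alone it changed for *EIF2AK4* (-0.059) and *ASNS* (0.13), with the GC and length correction for *PPP1R15A* (-0.012), and without ERRG replicate 2 for *ERN1* (-0.13 to 0.026 with 1 library left out). *ATF6*, at -0.0005, became 0.081 with DESeq2 and with RLE size factors, 0.0058 without a filter, 0.096 with the replicate block, 0.30 with the GC and length correction, 0.43 with both, and -0.048 to 0.19 with 1 library left out. Except for *DDIT4*, these genes were not called to begin with. The causes were not tested.

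Only numbers 3 and 4 are shared between the groups, and deviations of same-numbered libraries correlated at 0.075 and -0.0001, so the numbers were not taken to pair the samples. In the fit with a replicate block, GFP replicate 1 and ERRG replicate 2 each stand alone in their number and add nothing to the group difference. That fit therefore compares the groups in replicates 3 and 4 only. It left 22 genes higher, and 21 with the GC and length correction. *SESN2*, *HYOU1* and *CANX* had too few counts to be tested in any library.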
